A study of Mus musculus with 12 samples.

Results

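Gene expression in calf muscle was compared between 3 mice that had received adenovirus against both TSC22D4 and LCN13 and 3 mice that had received adenovirus against TSC22D4 together with control virus. These 6 arrays were chosen by their labels out of the 12 of the study, which held 3 arrays in each of 4 groups. All animals were 12-week-old db/db mice (BKS.Cg-Dock7m +/+ Leprdb/J), an obese and diabetic strain whose leptin receptor does not work. Each virus coded for a short hairpin RNA (shRNA), which guides the cell to destroy the matching transcript, and gastrocnemius, the large calf muscle, was taken 1 week after injection.

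The TSC22D4 group (animals 25, 26 and 27) was given equal doses, counted in plaque-forming units, of TSC22D4 shRNA virus and control shRNA virus. In the TSC22D4+LCN13 group (animals 29, 30 and 32) the control virus was replaced by the same dose of LCN13 shRNA virus, so the 2 groups shared the TSC22D4 virus and differed in LCN13 against control virus. The same replacement without TSC22D4 virus was available in the LCN13 group (animals 21, 22 and 23), which received LCN13 and control virus at those doses, and the control group (animals 18, 19 and 20), which received the whole dose as control virus. Of 7 animals treated per group, 3 described as representative were placed on arrays, and such a choice can narrow the spread seen between arrays. Each array was a separately numbered animal, p-values measure the spread between such animals, and precision is limited by having 3 arrays a group.

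LCN13 is a small secreted protein of the lipocalin family, which carry hydrophobic ligands, and it is known as a circulating factor that improves the response to insulin in mice. TSC22D4 is a leucine zipper protein that acts on transcription and is known in mouse liver as a repressor of the gene for LCN13. The comparison thus asks which muscle transcripts differ when LCN13 is targeted in animals that all carry TSC22D4 shRNA. Skeletal muscle takes up most of the glucose cleared under insulin, through the transporter GLUT4, and it is the main site where branched-chain amino acids are first broken down.

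Levels below are log2 values, in which a difference of 1 is a factor of 2, and differences are TSC22D4+LCN13 minus TSC22D4 unless another pair is named. Levels of different genes come from different probes and were not compared with each other. The tissue label fitted the arrays, with titin (Ttn) between 13.70 and 13.87 and nebulin (Neb) between 13.79 and 13.90 where the highest value of any probe set was 14.09. A level below the array median of 5.45 was not shown to be above background.

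The targeted transcripts did not separate the groups. Tsc22d4 measured 6.87, 6.86 and 6.75 in the TSC22D4 arrays and 7.01, 6.72 and 6.71 in the TSC22D4+LCN13 arrays, and it measured 6.54, 6.43 and 6.79 in control arrays. The TSC22D4 and TSC22D4+LCN13 groups overlapped (difference -0.01, SE 0.121, limma adjusted p = 0.986). Both received TSC22D4 virus, so this test could not show that knockdown. Lcn13 RNA is listed under its newer symbol, Obp2a, which ranged from 4.90 to 4.97 over the 12 arrays, at the 5.37 to 12.3 percentile of its array, close to the lowest value of any probe set of 4.78. A lower level of Obp2a could not be seen from this floor. Tsc22d4 lay at the 68.3 to 74.2 percentile and was not lower in TSC22D4 arrays (mean 6.82) than in control arrays (mean 6.59). Neither knockdown was thus visible in muscle, and the groups are named by their labels. Which tissue took up the virus is not stated in the labels.

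TSC22D4+LCN13 animal 30 stood apart from the other arrays. Its levels differed from the mean of the other 2 arrays of its group by 0.178 (root mean square over genes), against 0.153 for animal 29, 0.143 for animal 32 and 0.104 to 0.113 for the TSC22D4 arrays. When limma weighted arrays by their fit, animals 30 (0.59) and 29 (0.607) had the lowest weights of the 12 arrays, and animal 32 had 0.874. Many counts and medians are given with and without animal 30, and a value given once was not shown to hold without it.

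No gene passed the test between the 2 groups. Of 23185 genes, 0 (0%) had a limma adjusted p below 0.05, and the smallest adjusted p was 0.0788. At an unadjusted p below 0.05 there were 2434 genes (10.5%), of which 1037 (4.47%) measured higher and 1397 (6.03%) lower with both viruses. The 3 arrays of one group did not overlap the 3 of the other for 3392 genes (14.6%), 1360 higher (5.87%) and 2032 lower (8.76%). Differences were small, with a median size of 0.0417 over all genes. Only 2 genes, Alb and Hspa1a, measured over 2-fold higher and 0 measured over 2-fold lower. Non-overlapping genes with a difference over 0.5 were mostly higher, 58 (0.25%) against 6 lower (0.0259%). Without TSC22D4+LCN13 animal 30 the limma test passed 1 gene, Bhmt, a liver enzyme of methionine synthesis (difference -0.63, adjusted p = 0.00641). Without control animal 18 it passed 2 genes, Alg12 and Tmod2. Because 0 genes passed with all arrays, the genes below are described by their values, and "higher" or "lower" is a measured difference, not a called change. Up to 2 genes of each list were named from members whose groups did not overlap, so their lack of overlap follows from that choice.

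The gene with the smallest p was Alg12, a mannosyltransferase that builds the sugar chain attached to proteins in the endoplasmic reticulum. It measured 6.05, 6.10 and 6.04 in the TSC22D4 arrays and 6.39, 6.47 and 6.43 with both viruses. Every array with both viruses lay above every TSC22D4 array, with a difference of 0.37 (SE 0.039, limma adjusted p = 0.0788), or 1.29-fold. Without control animal 18, which enters only the shared estimate of spread, the adjusted p was 0.00481. Ggcx, the vitamin K-dependent carboxylase of the same compartment, measured 7.51, 7.57 and 7.51 against 7.94, 7.82 and 7.96 (difference 0.37, SE 0.0604, adjusted p = 0.136). Copz2, a subunit of the coat of vesicles that return proteins to the endoplasmic reticulum, measured 9.33, 9.40 and 9.45 against 9.71, 9.69 and 9.66 (difference 0.30, SE 0.0397, adjusted p = 0.136). Genes of smallest p were chosen for their difference, so their separation between the groups is a description.

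Signalling and matrix genes were also among the 20 smallest p. Bmp4, a ligand of the TGF-beta family, measured 6.40, 6.56 and 6.48 in the TSC22D4 arrays and 6.94, 6.96 and 6.83 with both viruses (difference 0.43, SE 0.0621, limma adjusted p = 0.136). Timp1, an inhibitor of matrix metalloproteinases, measured 5.31, 5.51 and 5.46 against 5.76, 5.89 and 5.89 (difference 0.42, SE 0.0637, adjusted p = 0.136), and the first group lay near the array median. Gstt1, a glutathione transferase, was 0.43 higher and Dpy19l1, a mannosyltransferase, 0.34 higher, with the same adjusted p of 0.136. The other 13 of the 20 genes were lower. They included Med13, a subunit of the Mediator complex of transcription, at 10.64, 10.63 and 10.64 against 10.45, 10.47 and 10.48 (difference -0.17, SE 0.0246, adjusted p = 0.136). Ttn, the giant spring protein of the sarcomere, measured 13.87, 13.83 and 13.82 against 13.70 in all 3 arrays (difference -0.15, SE 0.0235, adjusted p = 0.136). Arrays were given the same distribution of values, so equal levels of Ttn can reflect an equal rank and not an absence of spread between animals. The remaining lower genes were Ppm1k, Abtb2, Ss18l1, Tmed8, Xk, Fiz1, Ensa, Zbtb37, Tas1r1, Ppm1a and Rgs11, with differences from -0.14 for Rgs11 to -0.70 for Ppm1k.

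**Figure D1:**
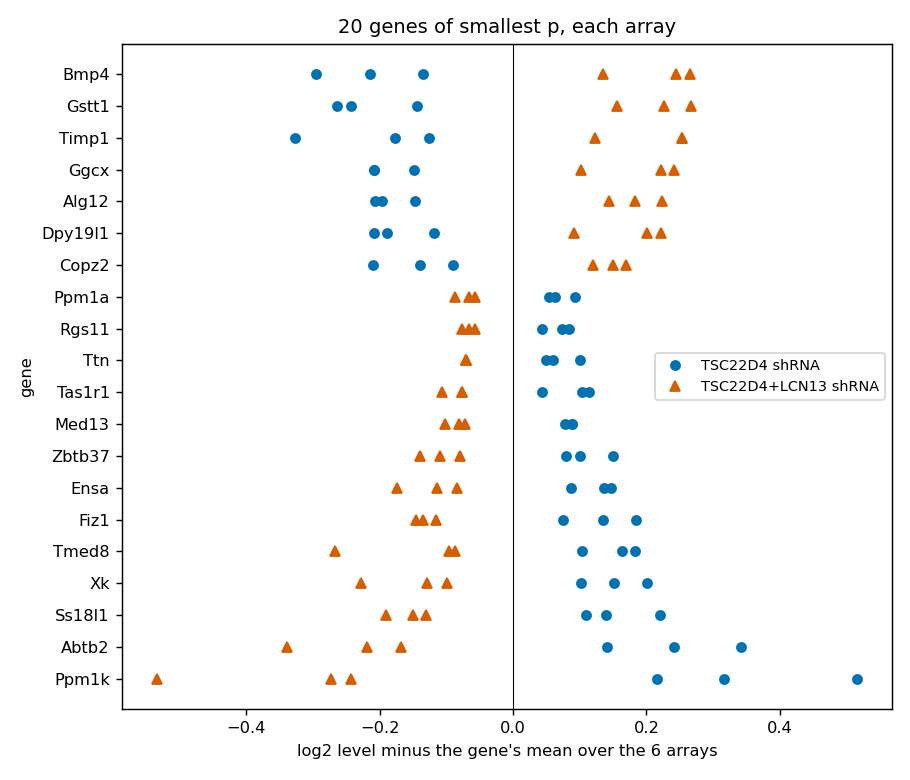
Each row is 1 of the 20 genes of smallest p, and each point is 1 array, placed by its log2 level minus the mean of the gene over the 6 arrays (circles, TSC22D4; triangles, TSC22D4+LCN13). With both viruses 7 genes measured higher and 13 lower. The genes were chosen by p in this comparison, so their separation follows from the choice, and 0 of them passed an adjusted p of 0.05.

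Genes of developing, stretched and regenerating muscle held several of the larger differences. Actc1, the cardiac alpha-actin that skeletal muscle makes during development and repair, measured 12.10, 12.34 and 11.86 in the TSC22D4 arrays and 12.70, 12.41 and 13.06 with both viruses. The lowest array with both viruses, animal 30, was just above the highest TSC22D4 array (difference 0.63, SE 0.174, limma adjusted p = 0.275). Without animal 30 the difference was 0.78. Actc1 is known as a target of serum response factor, which binds the CArG box, and its RefSeq window at chr2:114052826-114053125 (GRCm38.p6, minus strand, 250 bases before to 50 after the start) is shown for the 1 CArG box found in it, in capitals.
Actc1: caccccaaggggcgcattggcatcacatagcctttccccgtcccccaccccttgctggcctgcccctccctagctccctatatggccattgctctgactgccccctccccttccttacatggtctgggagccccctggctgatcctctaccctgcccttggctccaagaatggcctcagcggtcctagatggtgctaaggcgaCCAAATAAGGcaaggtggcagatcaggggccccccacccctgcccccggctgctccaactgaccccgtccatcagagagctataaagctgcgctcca
A CArG box, searched on both strands, was present in 290 of 17452 measured genes with such a window (1.66%) and in 3 of 17 genes of the developmental muscle list (17.6%), Actc1, Igf2 and Myh4. The match is a description of these letters only.

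Csrp3, a LIM protein of the sarcomere's Z-disc, measured 10.84, 11.23 and 10.69 against 11.42, 11.43 and 11.61 (difference 0.57, SE 0.153, limma adjusted p = 0.269). Ankrd1, a titin-bound protein induced by mechanical load, measured 7.81, 8.07 and 7.51 against 8.82, 8.60 and 8.34 (difference 0.79, SE 0.214, adjusted p = 0.271). Tceal7, of the same list, measured 6.80, 7.34 and 6.78 against 7.39, 7.46 and 7.95 (difference 0.62, SE 0.189, adjusted p = 0.313). None of the 4 genes overlapped between the groups, and the differences of Csrp3 (0.60), Ankrd1 (0.79) and Tceal7 (0.69) were no smaller without animal 30. In the LCN13 arrays against control, Csrp3 was 0.49 higher, Ankrd1 0.84 higher, Tceal7 0.85 higher and Actc1 0.29 higher, with adjusted p from 0.0863 to 0.573. Actc1 and Tceal7 were named after their values were seen.

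Of 22 measured genes of developmental and regenerating muscle, 5 had an unadjusted p below 0.05 and a higher level, including the titin-bound Ankrd2 (0.48), and 2 had a lower level, the perinatal myosin Myh8 (-0.16) and the acetylcholine receptor subunit Chrna1 (-0.15). The backgrounds were 4.47% higher and 6.03% lower of all genes. The median difference of the list was -0.0106, near the -0.00391 of all genes, so the difference lay in those few members. Without animal 30 the median was 0.0206, with 5 higher and 1 lower. Satellite cell and myogenic genes had a median of 0.0358 over 24 genes, with 3 higher and 2 lower at that threshold. The median was -0.00228 and the counts 3 and 1 without animal 30. Vcam1, an adhesion protein, measured 5.93, 6.03 and 5.98 against 6.31, 6.49 and 6.12 (difference 0.33, SE 0.0803, limma adjusted p = 0.258). Mef2a, a myogenic transcription factor, had a difference of -0.12 (adjusted p = 0.326).

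Cell division genes measured slightly higher. Of 30 measured, 10 were higher and 0 lower at an unadjusted p below 0.05, against 4.47% and 6.03% of all genes, and the median difference was 0.0645. Without animal 30 the counts were 8 and 0, where 5.01% of all genes were higher and 5.74% lower. Mki67, the proliferation antigen, measured 5.31, 5.27 and 5.29 against 5.51, 5.50 and 5.63 (difference 0.25, SE 0.0473, limma adjusted p = 0.211). Cdk1, the kinase that drives mitosis, measured 5.07, 5.07 and 5.12 against 5.16, 5.29 and 5.25 (difference 0.14, SE 0.0333, adjusted p = 0.234). Neither gene overlapped between the groups, which was the condition for naming them. The mean levels of 19 of the 30 genes lay below the array median, where a level was not shown to be above background.

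Fibre type genes gave no such count. Of 15 slow-fibre and 17 fast-fibre genes, 0 had an unadjusted p below 0.05, with medians of -0.071 and -0.0143. Myh7, the slow myosin heavy chain, named after its values were seen, measured 11.54, 11.86 and 11.48 against 11.59, 11.12 and 11.01, and the groups overlapped (difference -0.39, SE 0.246, limma adjusted p = 0.627). Calcium-handling genes had a median of -0.0422 over 28 genes, with 0 higher and 1 lower at that threshold (4.47% and 6.03% of all genes), the release channel Ryr1 (-0.09, adjusted p = 0.445). Without animal 30 the median was -0.00342 and the counts 0 and 0. Neuromuscular junction genes had a median of -0.0465 over 21 genes, with 1 higher, Runx1 (0.17), and 3 lower, or 1 and 2 without animal 30. Colq, the collagen tail that anchors acetylcholinesterase at the junction, measured 6.56, 6.55 and 6.36 against 6.33, 6.21 and 6.22 (difference -0.23, SE 0.0623, adjusted p = 0.269). Among 24 atrophy genes 1 was higher, the ubiquitin ligase Cblb (0.20, or 0.13 without animal 30), and 1 lower, the ubiquitin ligase Ubr2 (-0.18), with a median of -0.000977.

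Genes of branched-chain amino acid breakdown mostly measured lower with both viruses. The pathway removes the amino group, then passes the keto acid through the branched-chain dehydrogenase complex, which a kinase switches off and the phosphatase PPM1K switches on. Ppm1k measured 8.43, 8.23 and 8.13 in the TSC22D4 arrays and 7.64, 7.38 and 7.67 with both viruses. The groups lay far apart relative to their own spread, and the difference of -0.70 (SE 0.0973, limma adjusted p = 0.136) was 1.62-fold lower. Ppm1k was -0.60 without animal 30, so it did not rest on that array. In the LCN13 arrays against control it was -0.12 (adjusted p = 0.726), with levels of 7.90 to 8.04 in control. The limma test between the 2 backgrounds did not pass for Ppm1k (-0.58, adjusted p = 0.192).

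Subunits of the complex itself were named after their values were seen. Dbt, its core acyltransferase, measured 9.09, 8.97 and 8.80 against 8.52, 8.55 and 8.85, and animal 32 lay within the TSC22D4 range (difference -0.31, SE 0.104, limma adjusted p = 0.352). Bckdhb, the beta subunit of the first enzyme, measured 9.29, 8.90 and 9.00 against 8.83, 8.64 and 8.90, touching at 8.90 (difference -0.27, SE 0.102, adjusted p = 0.398). Bckdha, the alpha subunit, was -0.11, and the inhibiting kinase Bckdk -0.10, both with an adjusted p above 0.6. Further down the valine branch, Aldh6a1, a dehydrogenase of mitochondria, measured 11.14, 11.07 and 11.17 against 10.91, 10.85 and 10.92 without overlap (difference -0.23, SE 0.0479, adjusted p = 0.212). Aldh6a1 was lower by as much in LCN13 arrays against control, where it passed (-0.25, adjusted p = 0.0473). Pcca, a subunit of propionyl-CoA carboxylase, was -0.19 (adjusted p = 0.392), or -0.11 without animal 30.

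Of 24 measured genes of this breakdown, 19 were below 0, where 12292 of all 23185 genes were. At an unadjusted p below 0.05, 9 were lower, against 6.03% of all genes, while 1, the amino acid transporter Slc7a5 (0.39), was higher. The median was -0.146, and in LCN13 arrays against control it was -0.16. Without animal 30 the median was -0.07 and the count of lower genes 2, Ppm1k and Aldh6a1. The list score, the mean deviation of its genes from their 12-array means, was 0.09 to 0.16 in the TSC22D4 arrays, 0.02 in animals 29 and 32 and -0.10 in animal 30. In bulk muscle, fewer muscle nuclei in the sample and less RNA per nucleus cannot be told apart. Muscle nucleus markers had a median of -0.0189 over 16 genes, with scores of 0.01 to 0.03 in TSC22D4 arrays and -0.05 in animal 30.

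**Figure D2:**
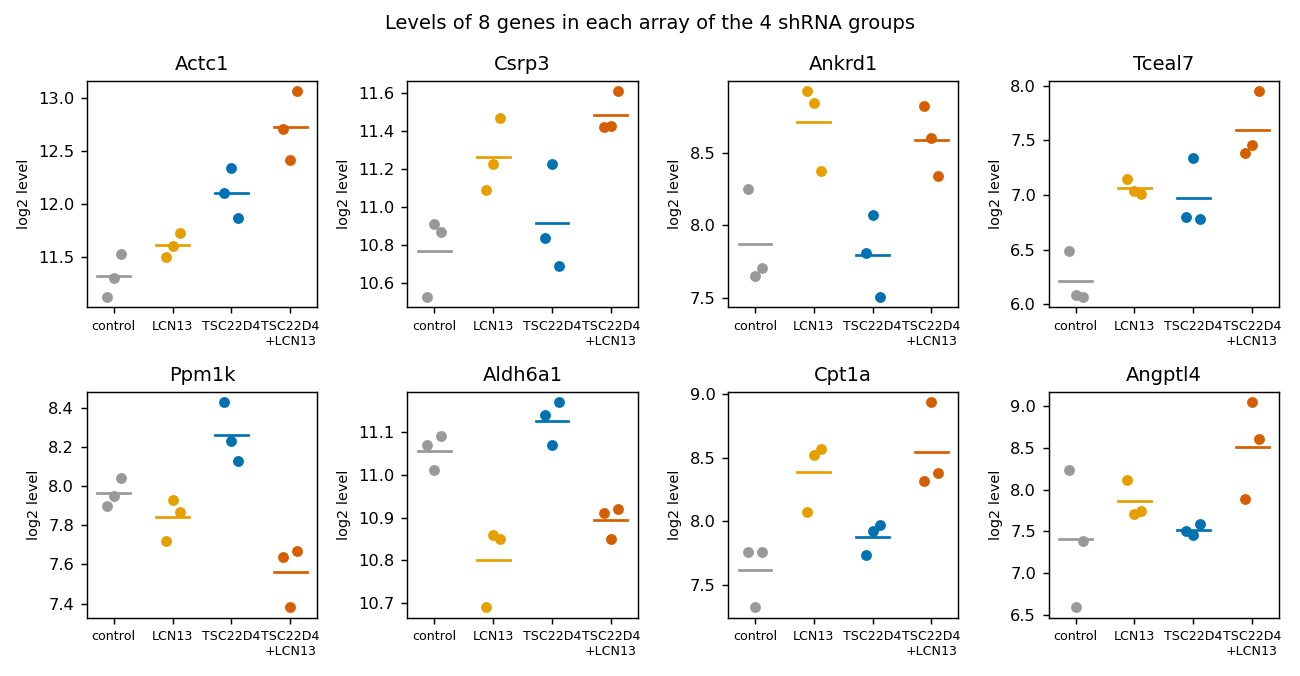
Log2 levels of 8 genes on each of the 12 arrays (points) with the mean of each group (lines), each panel on its own axis. Actc1, Csrp3, Ankrd1 and Tceal7 were above their TSC22D4 levels in all 3 TSC22D4+LCN13 arrays, Ppm1k and Aldh6a1 below, and for Cpt1a and Angptl4 the 3 arrays with both viruses also lay above.

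Glucose and mitochondrial genes mostly measured slightly lower, with list medians nearer 0 without animal 30. Slc2a4, which codes for GLUT4, measured 11.42, 11.48 and 11.49 against 11.36, 11.27 and 11.39 without overlap (difference -0.12, SE 0.0453, limma adjusted p = 0.393). In LCN13 arrays against control Slc2a4 passed, at -0.26 (adjusted p = 0.0358). Inppl1, a phosphatase that opposes insulin signalling, measured 9.01, 8.90 and 8.82 against 8.80, 8.43 and 8.59 (difference -0.30, SE 0.127, adjusted p = 0.453). Receptor and early signalling genes, named after their values were seen, had small differences, -0.04 for Insr, 0.17 for Irs1, 0.35 for Irs2 (0.18 without animal 30) and -0.07 for Akt2, each with an adjusted p above 0.5. Of 33 insulin signalling and glucose uptake genes, 0 were higher and 4 lower at an unadjusted p below 0.05 (1 lower without animal 30), where 4.47% of all genes were higher and 6.03% lower. The median was -0.0449, or -0.0352 without animal 30.

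Pyruvate dehydrogenase, which feeds glucose carbon into the citric acid cycle, followed the same direction. Pdha1, its catalytic alpha subunit, measured 11.34, 11.29 and 11.35 against 11.24, 11.02 and 11.12 (difference -0.20, SE 0.0509, limma adjusted p = 0.262). Pdpr, a regulatory subunit of the phosphatase that activates the complex, measured 11.16, 11.19 and 11.11 against 11.03, 10.88 and 10.98 (difference -0.19, SE 0.0396, adjusted p = 0.219). Neither overlapped between groups, which was again the condition for naming them. Of 29 genes of pyruvate dehydrogenase and the citric acid cycle 25 were below 0, where 12292 of all 23185 genes were. At an unadjusted p below 0.05, 0 were higher and 2 lower (4.47% and 6.03% of all genes), with a median of -0.0592 (-0.015 without animal 30). Of 29 glycolysis and glycogen genes 23 were below 0, 3 of them lower at that threshold, Hk2, Aldoa and Pgk1, with a median of -0.0534. Without animal 30 the median was -0.0186, with 1 higher and 2 lower, and 12 glycolysis and glycogen genes were above 0, against 6 with it. AMPK and mitochondrial biogenesis genes had a median of -0.0955 over 22 genes with 18 below 0, 1 higher and 2 lower at that threshold. Without animal 30 the median was -0.0591 and the counts 0 and 0. Oxidative phosphorylation genes were near 0, with a median of -0.0312 over 39 genes, 1 higher, cytochrome c (Cycs, 0.08), and 1 lower, the ATP synthase gamma subunit Atp5c1 (-0.22). Without animal 30 the median was -0.00423 and the counts 2 and 1, and 18 genes were above 0, against 15 with it.

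Fatty acid genes were split. Angptl4, a secreted inhibitor of lipoprotein lipase and a target of the PPAR receptors, measured 7.50, 7.46 and 7.59 in the TSC22D4 arrays and 7.89, 9.05 and 8.61 with both viruses. All 3 arrays were above the TSC22D4 arrays, which lay close together, with a difference of 1.00 (SE 0.387, limma adjusted p = 0.411), 0.73 without animal 30. Control arrays spanned 6.59 to 8.24 for the same gene. Cpt1a, which brings long-chain fatty acids into mitochondria, measured 7.73, 7.92 and 7.97 against 8.32, 8.94 and 8.38 (difference 0.67, SE 0.195, adjusted p = 0.290). Without animal 30 the difference was 0.48. Cpt1a was 0.77 higher in LCN13 arrays against control (adjusted p = 0.118). Plin2, a lipid droplet coat protein named after its values were seen, measured 9.21, 9.20 and 9.15 against 9.20, 9.97 and 9.69, and animal 29 lay among the TSC22D4 arrays (difference 0.43, SE 0.15, adjusted p = 0.366). Without animal 30 the Plin2 difference was 0.26.

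Of 38 measured fatty acid oxidation and PPAR genes, 5 were higher at an unadjusted p below 0.05 (4.47% of all genes) and 2 lower (6.03%), with a median of -0.00277. Without animal 30 the counts were 1 and 3 and the median -0.0555. Ehhadh, a peroxisomal oxidation enzyme, was lower without overlap, at 6.06, 5.91 and 5.80 against 5.75, 5.65 and 5.57 (difference -0.26, SE 0.0768, limma adjusted p = 0.297). Bdh1, the ketone body dehydrogenase, was named after its values were seen and measured 8.05, 8.39 and 7.93 against 7.80, 7.66 and 7.36 (difference -0.52, SE 0.139, adjusted p = 0.269). Among 30 lipogenic and cholesterol genes 1 was higher, the elongase Elovl5 (7.74, 7.91 and 7.86 against 8.05, 8.31 and 8.52, difference 0.46, adjusted p = 0.262), and 1 lower, Mvd (-0.25), or 1 and 0 without animal 30, with a median of 0.0135. Adipocyte markers moved with animal 30, as given below, and their part in the lipid differences was not tested.

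Stress-response genes were measured higher in single members. Hspb1, a small heat shock protein of the sarcomere, measured 9.01, 9.05 and 8.79 against 9.53, 9.59 and 9.11 (difference 0.46, SE 0.12, limma adjusted p = 0.264). Hspa1b, the inducible HSP70, measured 5.87, 6.06 and 6.14 against 7.12, 6.51 and 6.19 (difference 0.58, adjusted p = 0.452), and its near-identical copy Hspa1a measured 7.00, 8.53 and 7.35 against 8.79, 8.91 and 8.36 (difference 1.06, adjusted p = 0.464). Probes of these copies may detect both transcripts, so the 2 values are uncertain as separate genes. Of 26 heat shock genes 4 were higher and 1 lower at an unadjusted p below 0.05, where 4.47% and 6.03% of all genes were, and 1 and 1 without animal 30. Atf4, the transcription factor of the integrated stress response, was lower at 7.53, 7.52 and 7.43 against 7.31, 7.39 and 7.26 (difference -0.17, SE 0.0373, adjusted p = 0.229). Of 30 FoxO and ATF4 targets 4 were higher, including Atf3 (0.62), and 2 lower, including Fgf21 (-0.13), with a median of 0.036, and 1 and 2 without animal 30.

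Immediate early genes, induced within minutes of a stimulus, were above 0 for 24 of 30 (46.9% of all genes), with a median of 0.135. Without animal 30, 20 were above 0 and the median was 0.0676. At an unadjusted p below 0.05, 3 were higher and 1 lower (4.47% and 6.03% of all genes), and 0 and 0 without animal 30. Jun, a subunit of the AP-1 factor, measured 9.97, 10.10 and 10.24 against 10.60, 10.84 and 10.29 (difference 0.47, SE 0.159, limma adjusted p = 0.351). Of 28 metallothionein and antioxidant genes 4 were higher and 0 lower (1 and 0 without animal 30), with Gpx1, a glutathione peroxidase, at 0.31 (adjusted p = 0.316). Unfolded protein response genes had 3 higher and 0 lower of 26, with a median of 0.0749, and 1 and 1 with a median of 0.0265 without animal 30. Pdia6, a disulfide isomerase, measured 0.19 higher (adjusted p = 0.355). Glucocorticoid targets had 3 higher and 0 lower of 28, which were 0 and 0 without animal 30.

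The remaining lists were counted at the same unadjusted p below 0.05, where 4.47% of all genes were higher and 6.03% lower, or 5.01% and 5.74% without animal 30. Autophagy and lysosome genes had 5 higher and 2 lower of 35, including the proton pump subunit Atp6v1a (0.28) and the factor Tfe3 (0.22), with a median of 0.00456, and 3 and 1 without animal 30. Proteasome genes had 2 higher and 3 lower of 30, with Psmd8 at 0.18 and Psme4 at -0.18, and 3 and 1 without animal 30. Hypoxia and angiogenesis genes had 3 higher of 26, and 0 without animal 30. Myokines and secreted factors had 3 higher and 2 lower of 26, and 1 and 3 without it. Adipokine and inflammation genes had 4 higher and 1 lower of 26, and 3 and 0 without it. The TSC22 family and its partners had 1 higher of 10, the kinase Stk39 (0.34), and lipocalins 1 lower of 18, Apom (-0.07), which without animal 30 were 0 higher and 2 lower, and 3 lower. Of 22 ribosomal protein genes and 22 clock genes 0 passed that threshold, and without animal 30 there were 1 higher and 1 lower ribosomal protein gene. The median differences of these lists lay between -0.0661 for the TSC22 family and 0.0485 for the adipokine list.

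**Figure D3:**
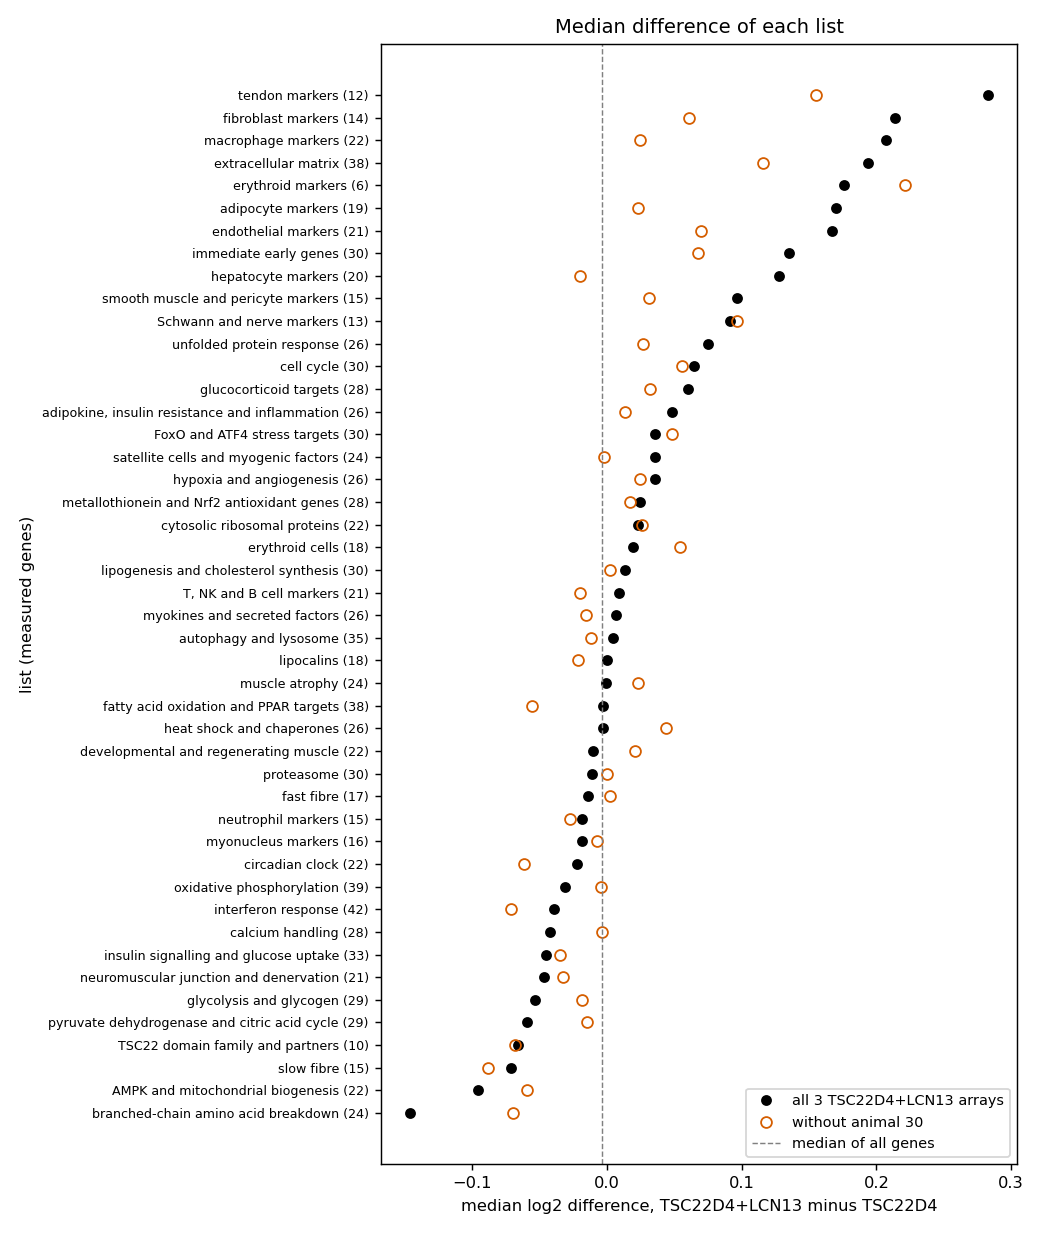
Median log2 difference of each list, TSC22D4+LCN13 minus TSC22D4, with all arrays (filled) and without animal 30 (open), and the median of all genes (dashed). Tendon, fibroblast, macrophage and matrix lists lay highest and branched-chain amino acid breakdown lowest, and these 5 medians lay nearer 0 without animal 30.

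Matrix and connective tissue genes measured higher in most members. Of 38 extracellular matrix genes, 36 were above 0, where 46.9% of all genes were, and the median was 0.194. At an unadjusted p below 0.05, 4 were higher and 0 lower, against 4.47% and 6.03% of all genes. Without animal 30, 30 were above 0, the median was 0.116 and the counts were 3 and 0. The matrix score was -0.13, 0.45 and 0.37 in animals 29, 30 and 32, against -0.24 to 0.15 in TSC22D4 arrays. The groups therefore overlapped. In LCN13 arrays against control the median of the list was 0.392. Lamb1, a laminin chain of the basement membrane, measured 7.53, 7.68 and 7.56 against 7.80, 7.80 and 7.99 without overlap (difference 0.27, SE 0.0699, limma adjusted p = 0.262). The abundant collagens, named after their values were seen, varied within groups, with Col1a1 at 10.95, 11.70 and 11.80 against 11.19, 12.05 and 12.32 (difference 0.37, SE 0.462, adjusted p = 0.830). All 14 fibroblast markers were above 0 (median 0.214), with 2 higher at that threshold, Cxcl14 and Thy1. Without animal 30, 10 were above 0, the median was 0.0606 and 0 passed that threshold. The fibroblast score was 0.56 in animal 30, 0.30 in animal 32, -0.07 in animal 29 and -0.21 to 0.16 in TSC22D4 arrays. All 12 tendon markers were above 0 too (median 0.283), and 0 passed that threshold. Without animal 30, 11 were above 0, the median was 0.155 and 1 passed. The tendon score spanned -0.37 to 0.38 in TSC22D4 arrays and -0.04 to 0.51 with both viruses, so the groups overlapped. The part of connective tissue in the matrix differences was not tested.

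Of the 6 arrays, animal 30 had the highest macrophage, fibroblast, adipocyte, hepatocyte, lymphocyte (0.24), Schwann (0.22), smooth muscle (0.20) and endothelial (0.19) scores. The macrophage score was 0.59 in animal 30, 0.03 in animals 29 and 32, and -0.11 to 0.05 in TSC22D4 arrays. Of 22 macrophage markers 3 were higher at an unadjusted p below 0.05 (4.47% of all genes), and 1 without animal 30. Mrc1, a mannose receptor of resident macrophages, nonetheless measured 7.83, 7.78 and 8.15 against 8.35, 8.69 and 8.29 in all 3 arrays (difference 0.53, SE 0.149, limma adjusted p = 0.282), and 0.40 without animal 30. Cd68 measured 8.88 in animal 30 against 7.71 and 7.38 in the others of its group. The adipocyte score was 0.54 in animal 30 against -0.21 to 0.01 in the other 5 arrays, with a median over 19 markers of 0.17 that was 0.0231 without it. Its defining markers were detected on all arrays, with Adipoq, the adipokine adiponectin, at 7.83 in animal 30 and 6.84 to 7.30 in the other 5.

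Liver transcripts were also detected. The hepatocyte score was 0.43 in animal 30 and -0.29 to -0.16 in the other 5 arrays, while LCN13 animal 22 had the highest of all 12 arrays at 0.78, and the median over 20 markers was 0.128 with animal 30 and -0.0199 without. Alb, serum albumin, measured 7.24, 8.38 and 7.40 against 8.22, 10.87 and 7.01, and its difference of 1.02 (SE 1.08, limma adjusted p = 0.794) was -0.06 without animal 30. Of 20 hepatocyte markers 11 had a mean below the array median. The part of such RNA in the differences above was not tested, and values without animal 30 are given for that reason.

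By list score, vessel and nerve markers measured slightly higher in animals 30 and 32 but not in animal 29. The endothelial score was -0.10, 0.19 and 0.08 in animals 29, 30 and 32, against -0.15 to -0.06 in TSC22D4 arrays. The smooth muscle score was -0.17, 0.20 and 0.10, against -0.13 to -0.03. The Schwann score was -0.00, 0.22 and 0.11, against -0.07 to 0.02. Of 21 endothelial markers 20 were above 0 (46.9% of all genes), with a median of 0.167, or 0.0697 without animal 30. At an unadjusted p below 0.05, 3 were higher (4.47% of all genes), or 2 without animal 30. Robo4, a receptor of vessel endothelium, measured 6.59, 6.62 and 6.66 against 6.88, 7.08 and 7.07 (difference 0.39, SE 0.0751, limma adjusted p = 0.211), and was 0.35 without animal 30. Smooth muscle and pericyte markers had 2 higher of 15, or 1 without animal 30, with Cnn1, calponin, at 5.51, 5.41 and 5.47 against 5.63, 6.16 and 6.14 (difference 0.51, adjusted p = 0.262). All 13 Schwann and nerve markers were at or above 0 (median 0.0915), 3 of them higher at that threshold. Without animal 30, 12 were above 0, the median was 0.0967 and 1 passed that threshold. Neutrophil markers had a median of -0.0189 over 15 genes, 13 of them with a mean below the array median.

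Lymphocyte markers were mostly near background, with 18 of 21 means below the array median and a median of 0.00879. At an unadjusted p below 0.05, 1 was higher and 1 lower (2 and 1 without animal 30). Of all genes 4.47% were higher and 6.03% lower at that threshold, or 5.01% and 5.74% without animal 30. Ighm, the heavy chain of immunoglobulin M, measured 10.66, 10.32 and 10.42 against 11.03, 11.18 and 11.18 without overlap (difference 0.66, SE 0.223, limma adjusted p = 0.352). In LCN13 arrays against control Ighm was -0.69 (adjusted p = 0.212), and the test of that contrast between the backgrounds did not pass (1.35, adjusted p = 0.187). The erythroid marker score was highest in animal 29, at 0.71, against 0.18 and 0.31 in animals 30 and 32 and -0.08 to 0.25 in TSC22D4 arrays. Of 6 erythroid markers 1 was higher at that threshold, and of the 18 genes of the longer erythroid list 1 was higher, the band 3 anion exchanger Slc4a1 (0.32), and 1 lower, Sptb (-0.26, or -0.16 without animal 30). Without animal 30, 3 of the 6 markers were higher, and 3 genes of the longer list were higher and 0 lower.

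**Figure D4:**
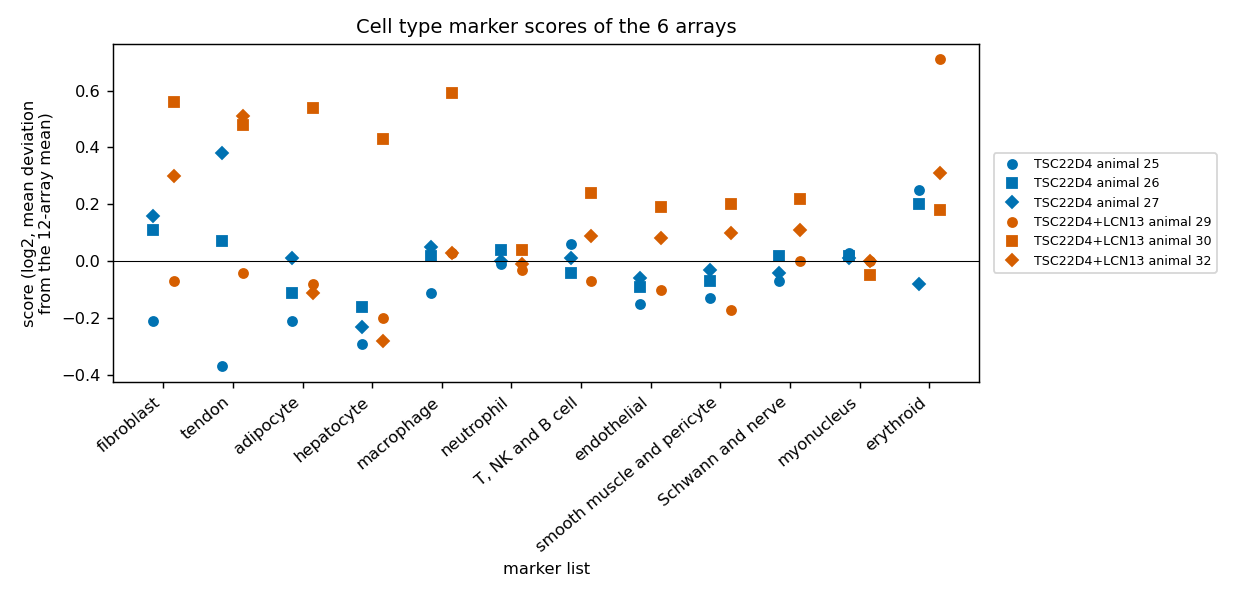
Scores of 12 marker lists (mean log2 deviation of the markers from their 12-array means) in the 3 TSC22D4 arrays (blue) and 3 TSC22D4+LCN13 arrays (orange). Animal 30 lay highest of the 6 for macrophage (0.59), fibroblast (0.56), adipocyte (0.54), hepatocyte (0.43), lymphocyte (0.24), Schwann (0.22), smooth muscle (0.20) and endothelial (0.19) markers, and animal 29 for erythroid markers (0.71).

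Interferon-induced genes, which cells switch on against viral nucleic acid, differed little between the groups beside their distance from control arrays. The list score was -0.22 to -0.17 in TSC22D4 arrays, against 0.56 to 0.86 in control arrays. With both viruses it was -0.30, -0.15 and -0.33 in animals 29, 30 and 32, so only animal 30 lay above the TSC22D4 arrays. Of 42 measured, 0 were higher and 5 lower with both viruses at an unadjusted p below 0.05, against 4.47% and 6.03% of all genes, and 0 and 7 without animal 30. The median was -0.0391 with 16 genes above 0, or -0.0713 with 8 above 0 without animal 30. The 3 arrays of each group did not overlap for 1 higher and 10 lower genes, against 5.87% and 8.76% of all genes. Stat2, the signal transducer below the type I interferon receptor, measured 6.71, 6.71 and 6.63 against 6.33, 6.49 and 6.32 without overlap (difference -0.30, SE 0.0857, limma adjusted p = 0.281). Oasl2, an oligoadenylate synthetase-like protein, measured 6.92, 7.06 and 6.93 against 6.61, 6.90 and 6.46 without overlap (difference -0.32, SE 0.126, adjusted p = 0.423).

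The same virus replacement could be compared on the background without TSC22D4 virus. The differences of the 2 comparisons come from arrays that they do not share, but their p-values use the same spread estimate for each gene. LCN13 minus control passed 197 of 23185 genes (0.85%), 55 higher (0.237%) and 142 lower (0.612%), by limma. Fitted on the arrays of those 2 groups alone it passed 18. Of the 42 interferon genes 31 fell in that comparison, with a median of -0.88. Of the 197 genes 127 (64.5%) had the same sign on the TSC22D4 background, against 52.9% of all genes. With an unadjusted p below 0.05 there, 35 (17.8%) had the same sign, against 6.03% of all genes. At that threshold 6 (3.05%) had the opposite sign, against 4.47%. Genes with a small shared spread are favoured by both tests, so the shares at this threshold are partly built in and are not a separate check. The 64.5% of equal signs does not use that threshold. Adss, an enzyme of AMP synthesis, rose by 0.35 on control background (adjusted p = 0.0119) and was 0.27 higher here, at 8.15, 8.17 and 8.12 against 8.36, 8.47 and 8.44 (adjusted p = 0.179). Usp24, a deubiquitinase, was -0.26 there (adjusted p = 0.0211) and -0.23 here (adjusted p = 0.152). Copz2 was 0.26 there (adjusted p = 0.022) and 0.30 here, and Ggcx 0.37 (adjusted p = 0.0276) and 0.37. Adss and Usp24 were named after their values were seen. Across genes, the 2 sets of differences had a Pearson r of 0.243 and a Spearman rho of 0.146, given as a description since genes are not independent.

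The difference between the 2 backgrounds was tested as an interaction, the difference with both viruses minus that of LCN13 minus control. It passed 29 genes (0.125%), 24 above 0 (0.104%) and 5 below 0 (0.0216%), and 9.57% of all genes had an unadjusted p below 0.05. With 1 array left out the count lay between 3 and 50, with 5, 4 and 3 genes without TSC22D4 animals 25, 26 and 27, 8 without control animal 18 and 50 without control animal 19. It was 14, 11 and 17 without LCN13 animals 21, 22 and 23, and 10, 21 and 15 without TSC22D4+LCN13 animals 29, 30 and 32. All 24 genes above 0 fell in LCN13 minus control and lay between -0.34 and 0.51 in TSC22D4+LCN13 minus TSC22D4, and 13 of the 29 were on the interferon list. Ifit1, which binds foreign RNA, measured 9.88, 9.31 and 9.66 in control arrays and 7.04, 7.06 and 7.54 in LCN13 arrays. It measured 6.50, 6.77 and 6.68 in TSC22D4 arrays and 6.73, 6.50 and 6.35 with both viruses. Control arrays were thus high and the other 9 low, and the interaction was 2.28 (adjusted p = 0.0161). Irf7, a transcription factor of the interferon response, gave 2.24 (adjusted p = 0.0229) with control at 9.87, 9.93 and 10.33 and all other arrays between 6.87 and 7.79. Herc6, an interferon-induced ubiquitin ligase, gave 1.66 (adjusted p = 0.000697) and passed with any 1 of the 12 arrays left out.

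Cmpk2 (2.18), Ifit2 (1.66), Phf11d (1.40), Oasl2 (1.36), Parp14 (1.33) and H2-T24 (1.32) were the next by size. Lgals9, galectin-9, a sugar-binding immune regulator, differed from these. It measured 8.23, 8.38 and 8.34 in TSC22D4 arrays and 8.81, 8.98 and 8.71 with both viruses, without overlap (difference 0.51, SE 0.139, limma adjusted p = 0.273), while it fell in LCN13 minus control by 0.81 on the log2 scale (adjusted p = 0.0337). Its interaction was 1.32 with an adjusted p of 0.05 after rounding, and it passed in 2 of 12 fits with 1 array left out. Of the 5 genes below 0, Med13 gave -0.28 (adjusted p = 0.0229), at 10.65, 10.64 and 10.67 in control and 10.79, 10.79 and 10.72 in LCN13 arrays. Tas1r1, a taste receptor subunit, gave -0.27 (adjusted p = 0.0449), with levels of 5.37 to 5.40 with both viruses, below the array median. Med13 passed in 3 and Tas1r1 in 1 of the 12 fits with 1 array left out.

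Interferon-stimulated response elements are bound by complexes of STAT and IRF factors, and their core, GAAA followed by any 2 bases and a further GAAA, was searched on both strands (TTTC, any 2 bases, TTTC on the other) in RefSeq windows of GRCm38.p6. It was present in 678 of 17452 measured genes with a window (3.88%) and in 4 of 17 interaction genes above 0 (23.5%), Ifit1, Ifih1, Lgals9 and Stat2. The windows of 3 are shown, the gene of largest interaction with 2 copies, Lgals9 with 2, and the RNA sensor Ifih1 with 1, at chr19:34640639-34640938 (plus strand), chr11:78984875-78985174 (minus strand) and chr2:62646206-62646505 (minus strand). Capitals mark the core.
Ifit1: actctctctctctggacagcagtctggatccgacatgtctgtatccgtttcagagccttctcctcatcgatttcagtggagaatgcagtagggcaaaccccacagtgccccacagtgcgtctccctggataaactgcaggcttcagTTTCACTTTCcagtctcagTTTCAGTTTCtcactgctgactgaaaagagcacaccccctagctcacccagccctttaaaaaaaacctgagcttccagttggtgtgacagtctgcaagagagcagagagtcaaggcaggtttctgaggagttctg
Lgals9: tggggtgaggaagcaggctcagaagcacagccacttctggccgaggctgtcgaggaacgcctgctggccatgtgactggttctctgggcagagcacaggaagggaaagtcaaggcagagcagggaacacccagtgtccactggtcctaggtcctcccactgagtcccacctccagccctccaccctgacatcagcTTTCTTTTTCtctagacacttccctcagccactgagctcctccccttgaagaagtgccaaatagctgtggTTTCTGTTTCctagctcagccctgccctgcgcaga
Ifih1: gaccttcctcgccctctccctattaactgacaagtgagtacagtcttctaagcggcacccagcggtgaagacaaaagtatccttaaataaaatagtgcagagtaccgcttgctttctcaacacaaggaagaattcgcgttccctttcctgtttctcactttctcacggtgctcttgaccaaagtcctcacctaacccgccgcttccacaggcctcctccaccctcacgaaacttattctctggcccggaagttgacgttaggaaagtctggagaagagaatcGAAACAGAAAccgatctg
These matches describe the letters of the windows. Genes with and without the core were both among the 24.

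**Figure D5:**
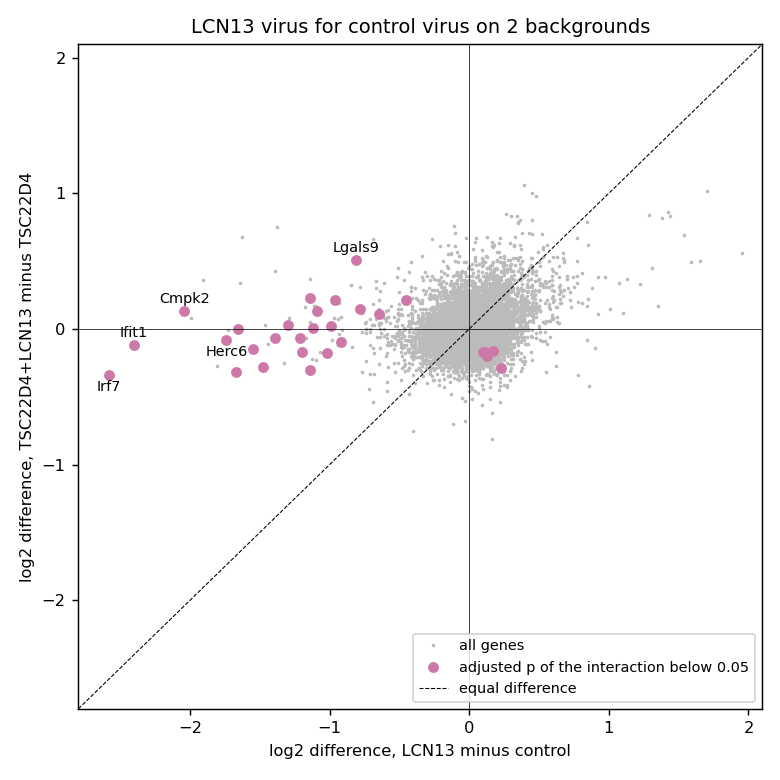
Log2 difference of each gene for LCN13 minus control (horizontal) against TSC22D4+LCN13 minus TSC22D4 (vertical), with the 29 genes past the interaction test in pink. Ifit1, Cmpk2 and Herc6 lay far left and between -0.12 and 0.13 vertically, Irf7 far left at -0.34, and Lgals9 at 0.51. The 5 genes of negative interaction lay right of 0 and below it, the furthest at 0.23 and -0.29.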

How the data were processed

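Per the labels' protocols, muscle RNA of 12 mice was labelled with biotin and measured on Affymetrix arrays of 1 colour. Per the submitters' processing notes, the authors used RMA, and they deposited its log2 levels for 25206 probe sets. RMA subtracts background, gives every array the same distribution and combines the probes of a set. Its version is not given in the sources here. A shared distribution hides a shift of most genes one way. No batch or date is given, so a batch that follows the groups cannot be told apart from them.

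Here, 23185 probe sets with 1 gene symbol in the supplied platform annotation were fitted with limma 3.58.1 (lmFit, eBayes) in R 4.3.3, using the 12 arrays and a mean for each of the 4 groups, so that they share 1 spread estimate (8 residual and 1.69 prior degrees of freedom). The other 2021 entered an alternative. Tests were two-sided, with Benjamini-Hochberg adjustment over 23185 genes and a threshold of 0.05. Steps were tested on simulated data. The groups share no animal number, so nothing was paired.

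Named genes were the 2 targets, the 20 of smallest p where too few passed, up to 10 interaction genes by size and up to 2 per list, with predicted genes left out. Those of a list were the members of smallest p among members whose groups did not overlap. All other genes named were chosen after their values were seen. The groups, 34 gene lists and 12 marker lists were chosen with earlier results of these data known. The counts without animal 30 were added after seeing the data. Promoter windows came from RefSeq (GRCm38.p6), matched by symbol for 17452 genes.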

Additional observations from a re-analysis of the deposited data

Results flagged for a closer look

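The effect of LCN13 virus in place of control virus differed between the backgrounds, by limma's interaction test, for 29 genes. By size, the 10 named ones were Ifit1 (2.28 on the log2 scale), Irf7 (2.24), Cmpk2 (2.18), Herc6 (1.66), Ifit2 (1.66), Phf11d (1.40), Oasl2 (1.36), Parp14 (1.33), H2-T24 (1.32) and Lgals9 (1.32). Of these, Herc6 passed in all 12 fits with 1 array left out, Parp14 in 11, Ifit1 in 9, Cmpk2 in 8, Irf7 in 5, Ifit2 and Oasl2 in 4, H2-T24 in 3, and Phf11d and Lgals9 in 2.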

How the results depend on the processing

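For TSC22D4+LCN13 minus TSC22D4, 0 genes passed the adjusted threshold under all probe sets, genes above the median level, trend and robust options, quantile normalization, median centring, array weights and the 6 arrays alone. With 1 array left out the count was 0 to 2, with 2 genes without control animal 18, 1 without TSC22D4+LCN13 animal 30 and 0 in the other 10 fits. At an unadjusted p below 0.05 the counts were 2434 for this comparison, 2870 for LCN13 minus control and 2219 for the interaction. LCN13 minus control (197) became 18 with the compared groups' arrays alone and 340 with array weights. With 1 array left out it ranged from 77 without control animal 20 to 280 without TSC22D4+LCN13 animal 30. It was 86 and 101 without LCN13 animals 21 and 23, and 127 and 120 without TSC22D4 animals 26 and 27. The interaction (29) became 51 among genes above the median level and ranged from 3 to 50: 50 without control animal 19, 8 without 18, 14, 11 and 17 without LCN13 animals 21, 22 and 23, 5, 4 and 3 without TSC22D4 animals 25, 26 and 27, and 10, 21 and 15 without TSC22D4+LCN13 animals 29, 30 and 32. The causes were not tested. Among 2038 values of 108 named genes under an alternative, 1 newly passed, Alg12 without control animal 18, and 12, of 4 genes, had the other sign. Of 46 list medians 12 moved by over 1 SD in some setting. No paired analysis was possible because the groups share no animal number. Low levels near the array floor limit what can be seen for Obp2a and many cell cycle and immune genes.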

Other observations

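These genes were chosen after their values were seen. Terc, the RNA template of telomerase, measured 6.37, 6.72 and 6.43 in TSC22D4 arrays and 6.95, 7.13 and 7.12 with both viruses, without overlap (difference 0.56, SE 0.0998, limma adjusted p = 0.193). Rian, a noncoding RNA of an imprinted cluster on chromosome 12, measured 6.37, 6.49 and 6.56 against 7.07, 6.91 and 7.25 (difference 0.60, SE 0.129, adjusted p = 0.229). It was 0.53 higher in LCN13 arrays against control (adjusted p = 0.105). Rpph1, the RNA of ribonuclease P, was 0.62 higher (adjusted p = 0.278) and the small RNA Scarna13 0.79 higher (adjusted p = 0.335). Neither overlapped between the groups.

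Among other genes chosen after their values were seen, Slc1a5, a glutamine transporter, measured 8.28, 8.61 and 9.06 against 9.12, 10.12 and 9.27 without overlap (difference 0.85, SE 0.252, adjusted p = 0.299), and 0.54 without animal 30. Trim63, a ubiquitin ligase of muscle wasting, was 0.04 with both viruses and passed as lower in LCN13 minus control (-0.75, adjusted p = 0.0251), while the test between backgrounds did not pass (0.79, adjusted p = 0.145). Mstn, myostatin, a brake on muscle growth, measured 11.01, 10.66 and 10.77 against 10.90, 10.63 and 10.91, with overlapping groups.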
